A study of Homo sapiens with 8 samples.

Results

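The peaks described here lie at the promoters of genes for histone methyltransferases and demethylases, in cells that express the leukemic fusion protein PML::RARA. Members were the peaks whose assigned gene symbol begins with KMT, KDM, SETD, EHMT, PRDM or SUV, or is NSD1, NSD2, NSD3 (the last pair also under their older names WHSC1 and WHSC1L1), DOT1L, ASH1L or ASH2L. The rule used symbols alone and no measured value. It found 42 of the 7169 gene-labelled peaks, under 39 symbols on 18 chromosomes, and they were set beside the other 7127 gene-labelled peaks. Of the 39 symbols, 36 are protein-coding genes and 3 are noncoding transcripts named after a neighbour (KDM4A-AS1, KDM7A-DT and KMT2E-AS1).

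The study used Cut&Run, in which an antibody directs a nuclease to cut out the DNA its target sits on, in U937-PR9, a single human myeloid cell line that carries a PML::RARA transgene under a zinc-inducible promoter. Its 8 libraries form 4 groups of 2 replicates, namely anti-PML-RARA or anti-RARA antibody in induced cells (100 μM ZnSO4 for 5 h) or in uninduced control cells, which received water and carry the same transgene. The peak list analysed here is of induced cells with the anti-PML-RARA antibody, and holds 15412 peaks. Zinc and the fusion protein were present together in every cell behind the list, so their parts cannot be told apart.

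Histone tails are methylated by writers, most of which share a catalytic SET domain, and demethylated by erasers, which are flavin-dependent amine oxidases or JmjC-domain oxygenases. Methylation of H3K4 is known from active promoters and enhancers, of H3K36 and H3K79 from transcribed gene bodies, and of H3K9, H3K27 and H4K20 from repressed or compacted chromatin. Several of these enzymes are mutated, rearranged or needed in acute myeloid leukemia.

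Each peak has 1 height, the largest signal within it (given as the peak's score), and 1 width. There is no value for each replicate, so no spread between replicates and no test stand behind the values, and the sequencing depth is unknown. Intervals are 95% intervals and cover the counting of genes or peaks only.

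The DNA under 4 of the highest protein-coding member peaks is shown first, so that the sequence at the largest signal of the family can be read. Each run is 150 bases of hg19 centred on the apex, 5′ to 3′, and the peaks are the 4 highest for which this run overlaps no annotated exon. Capitals mark a GC box (GGGCGG) or a CCAAT box (CCAAT), searched on both strands.
KMT5C, chr19:55850967-55851116, plus strand: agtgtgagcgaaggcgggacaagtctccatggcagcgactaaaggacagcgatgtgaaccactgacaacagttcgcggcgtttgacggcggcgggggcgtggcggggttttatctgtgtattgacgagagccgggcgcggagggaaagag
KDM4B, chr19:4968676-4968825, plus strand: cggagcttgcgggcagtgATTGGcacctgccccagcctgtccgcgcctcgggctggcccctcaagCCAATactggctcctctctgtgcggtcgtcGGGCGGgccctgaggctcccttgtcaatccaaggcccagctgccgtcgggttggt
KMT5A, chr12:123868405-123868554, plus strand: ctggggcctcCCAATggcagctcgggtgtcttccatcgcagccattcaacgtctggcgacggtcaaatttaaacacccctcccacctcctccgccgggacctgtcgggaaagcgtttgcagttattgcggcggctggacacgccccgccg
KDM2A, chr11:67007303-67007452, plus strand: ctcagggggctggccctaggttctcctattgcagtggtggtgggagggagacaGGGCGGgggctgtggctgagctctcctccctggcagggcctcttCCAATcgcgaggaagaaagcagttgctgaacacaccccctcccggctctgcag

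The KMT5C stretch held neither motif. The KDM4B stretch held 1 GC box and 2 CCAAT boxes, the first of these on the opposite strand. The KMT5A stretch held 1 CCAAT box, and the KDM2A stretch, which lies in intron 12 of the gene and not at its 5′ end, held 1 of each.

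Nuclear receptors such as RARA bind DNA through repeats of a short hexamer, here searched as AGGTCA or GGGTCA. Of the 42 member windows of 300 bases centred on the apex, 11 held this hexamer. The 26-base stretches below, with the hexamer nearest the apex in capitals and written on the strand that carries it, show 6 of the 11 and cover H3K9, H3K36 and H3K79 writers, an H3K27 eraser and the tallest members with a match.
EHMT2, chr6:31865486-31865511, plus strand: cggccgccccGGGTCAcgtgggcgag
KDM6A, chrX:44732325-44732350, plus strand: gagtcaacaaAGGTCAcgtgaggcgt
SETD2, chr3:47205723-47205748, minus strand: tcccggcctgGGGTCAagccaacagc
DOT1L, chr19:2164775-2164800, minus strand: ccatttccaaAGGTCAgaccgctccc
SETD3, chr14:99947585-99947610, minus strand: cccgccccgcGGGTCAgtggctgctg
PRDM10, chr11:129873065-129873090, plus strand: cttcgcattgGGGTCAagcccccgct

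In EHMT2 and KDM6A the hexamer runs into an E-box (CACGTG), so the same letters count for both motifs. The other 5 matches were in SETDB1, the upstream DOT1L peak, KDM2B, KDM6B and SETD9. GGGTCA was the nearest form in 7 of the 11 windows and AGGTCA in 4, and 1 window, that of KDM6A, held more than 1 hexamer.

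A promoter peak under its own symbol was present for 36 of the 64 protein-coding genes of the family in the GENCODE annotation, or 56.2% (44.1 to 67.7%), beside 29.8% of the 20072 other protein-coding genes. Counting any peak within 1 kb of a start site, whatever its label, the family had 41 genes, or 64.1%, beside 39.2%. Within 3 kb it had 45 genes, or 70.3%, beside 41.9%. Family start sites were also richer in CpG, with a median observed-to-expected CpG ratio of 0.917 beside 0.799. Among genes with a ratio of at least 0.6, a class set after the data were seen, 35 of 60 family genes (58.3%) carried an own-symbol peak, beside 39.3% of 13666 others. The part of CpG content in the remaining gap was not tested.

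**Figure D1:**
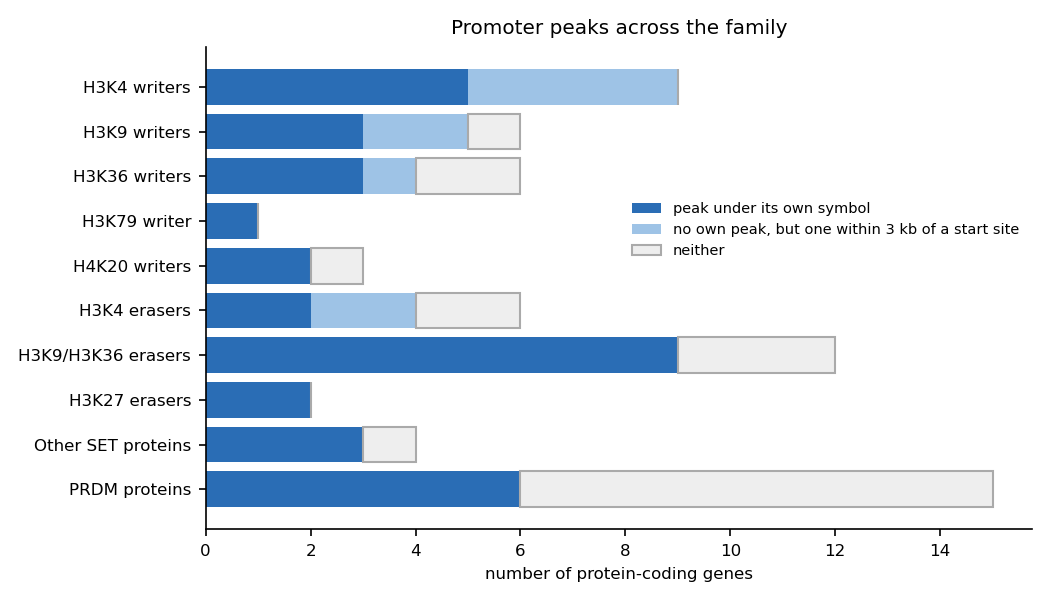
Number of protein-coding genes of each group with a promoter peak under their own symbol (dark blue), with only a differently labelled or unlabelled peak within 3 kb of a start site (light blue), or with neither (grey). All 9 genes of the H3K4 writers have a peak within 3 kb, while 9 of the 15 PRDM genes have none. PRDM9, also an H3K4 writer, is counted among the PRDM genes without one.

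Heights of the member peaks ran from 16 to 55, with a median of 26.5 (21.0 to 33.0), and those of the other gene-labelled peaks from 13 to 86, with a median of 26.0. The median width was 1189 bp (991 to 1421 bp) beside 1107 bp, and member widths spanned 101 to 3170 bp. On the log2 scale the medians differed by 0.03 in height (-0.31 to 0.34) and by 0.10 in width (-0.16 to 0.36), members minus others, and both intervals include 0. The widest of the other peaks reached 7313 bp, so the highest and the widest promoter peaks of the list were not members. At or above the upper quartile of gene-labelled peaks in height (35) were 13 of the 42, or 31.0%, beside 25.4%, and at or above that in width (1539 bp) 12, or 28.6%, beside 25.0%. At the other end 14 members had a height of 20 or less, or 33.3%, beside 25.9%. Of these 14 low peaks, 6 were wider than the median of the other peaks, so a low member peak was not always a narrow one. Height and width went together to a like degree in members (Spearman's rho 0.46, n = 42) and others (0.45, n = 7127), as a description over peaks that share their libraries.

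**Figure D2:**
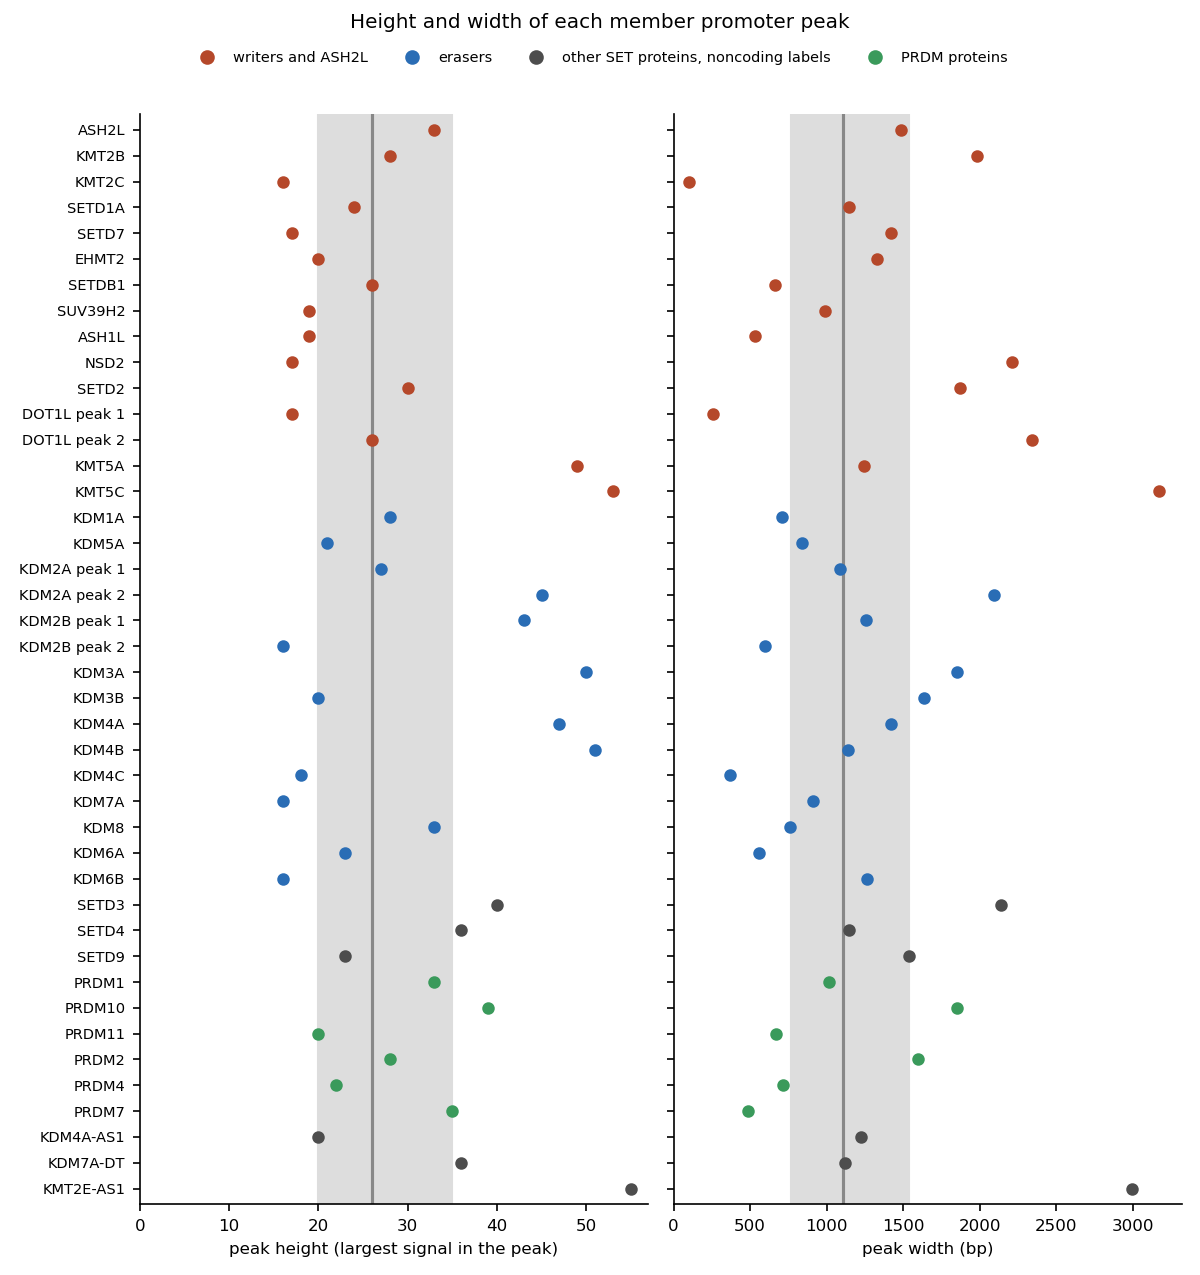
Height (left, largest signal in the peak) and width (right, bp) of all 42 member peaks by gene, coloured by role, with the median (line) and the quartiles (band) of the other 7127 gene-labelled peaks. KMT2E-AS1, KMT5C, KDM4B and KDM3A stand highest at 50 to 55, and KMT5C and KMT2E-AS1 are the widest.

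**Figure D3:**
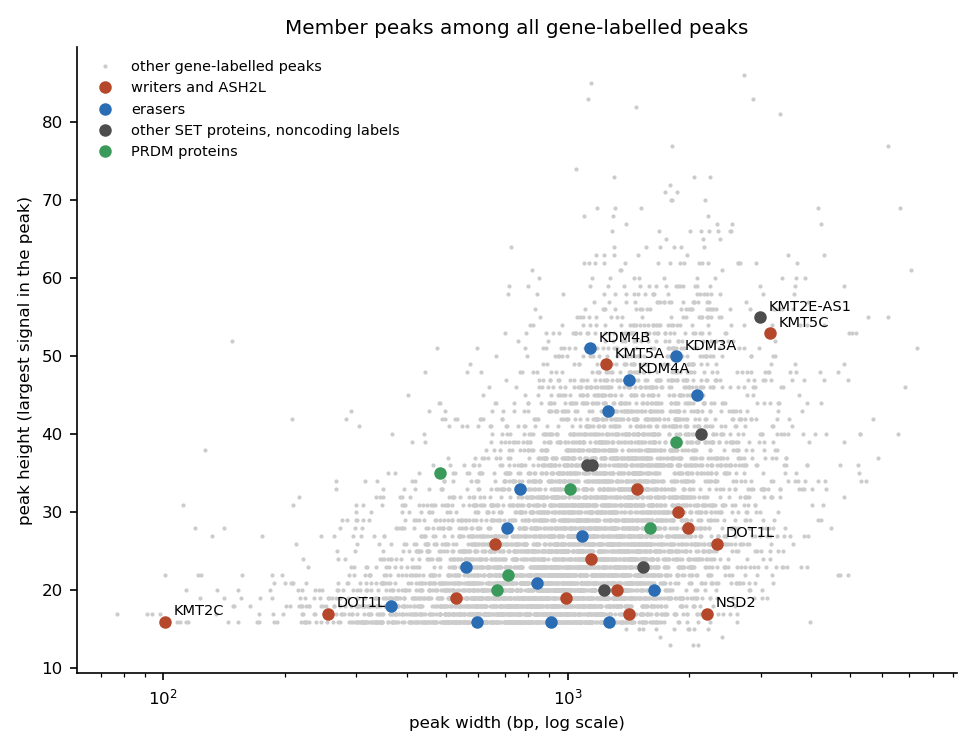
Height against width (bp, log scale) of the member peaks, coloured by role, among the other gene-labelled peaks (grey points). KMT5C and KMT2E-AS1 lie at the upper right, NSD2 is wide (2214 bp) at a height of 17, and KMT2C (101 bp) is the narrowest member.

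The H3K4 writers include KMT2A to KMT2D, SETD1A and SETD1B, the catalytic subunits of the COMPASS-like complexes. Own-symbol peaks were present for 5 of 9 genes of the group, or 55.6% (26.7 to 81.1%). The share among other protein-coding genes, 29.8%, lies inside that interval. PRDM9, also an H3K4 writer, is counted with the PRDM genes and had no peak. The 5 peaks of the group had a median height of 24 (16 to 33). The tallest was that of ASH2L, the core subunit that these enzymes need for activity. It stood at 33 over 1485 bp and peaked 7 bp upstream of the nearest transcript start of the gene. KMT2B had a height of 28 and was the widest of the group at 1982 bp. SETD1A, a writer of promoter H3K4 trimethylation, stood at 24 over 1145 bp, and SETD7, which adds a single methyl group, at 17 over 1421 bp with its apex in intron 1. KMT2C, which acts at enhancers, had the narrowest labelled peak of the family, 101 bp wide and 16 high at chr7:152133976-152134076, and it did not reach the gene's own start.

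The other 4 genes of this group had peaks close by without their symbol. At KMT2A, the gene rearranged in many acute leukemias, an unlabelled peak at chr11:118305025-118307569 covered the start, 31 high and 2545 bp wide, which exceeds the width of 97.2% of the list's peaks. At KMT2D an unlabelled peak covered the start, 23 high and 2561 bp wide. At SETD1B the peak carried the label of the noncoding LINC01089, with a height of 39 and an apex 1011 bp upstream. KMT2E, whose SET domain is thought to be inactive, is covered at a start site by the KMT2E-AS1 peak, 55 high and 2997 bp wide at chr7:104652662-104655658, the highest of all 42 members. Hence a count by gene symbol alone leaves out the wide peaks that cover the start sites of KMT2A, KMT2D and SETD1B.

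H3K9 writers deposit the mark of silent heterochromatin, and 3 of 6 genes had an own-symbol peak. Their heights were low to middling, at 26 over 663 bp for SETDB1, the partner of KRAB zinc finger repressors, 20 over 1327 bp for EHMT2 (G9a) and 19 over 991 bp for SUV39H2. Peaks under other labels were found at SETDB2 (52 high, labelled with its divergent neighbour CAB39L) and at EHMT1, the partner of EHMT2 (18 high, labelled ARRDC1-AS1). SUV39H1 had none within 3 kb.

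Of the H3K36 writers, SETD2, the enzyme for H3K36 trimethylation in gene bodies, had a peak 30 high and 1870 bp wide. NSD2, a dimethyltransferase activated by translocation in myeloma, had a low but wide peak, 17 high and 2214 bp, wider than 92.2% of the other gene-labelled peaks. ASH1L stood at 19 over 531 bp. At SETD5, whose own enzyme activity is debated, a peak labelled THUMPD3-AS1 covered the start, 62 high and 2640 bp wide, and was higher than 99.2% of all peaks. Neither NSD1 nor NSD3 had a peak within 3 kb of a start site.

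DOT1L, the writer of H3K79 methylation and a drug target in KMT2A-rearranged leukemia, had 2 labelled peaks. The one at chr19:2163463-2165803 covered the start, 26 high and 2341 bp wide, with its apex in intron 1, and the other, 17 high and 256 bp wide, lay at chr19:2162721-2162976, with its apex 1044 bp upstream. Across the family 3 of 39 symbols had 2 labelled peaks, DOT1L, KDM2A and KDM2B, or 7.69% beside 8.42% of the other symbols.

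Among writer peaks under their own symbol, the highest were those of the H4K20 enzymes. KMT5C, which adds further methyl groups to monomethylated H4K20, had a peak at chr19:55849924-55853093, 53 high and 3170 bp wide, above 96.1% of the other gene-labelled peaks in height and 98.0% in width. KMT5A, the monomethyltransferase of the same residue, stood at 49 over 1247 bp. KMT5B, the close relative of KMT5C, had no peak within 3 kb, so not every gene of the group had a called peak. The signal at KMT5B itself was not examined. With 2 peaks in the group, no interval was given.

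Among erasers of H3K4 methylation, KDM1A (LSD1), the flavin-dependent enzyme of the CoREST complex, had a height of 28 over 710 bp and KDM5A a height of 21 over 838 bp. KDM1B was covered by a peak labelled TPMT, 19 high, and KDM5B had only one labelled PCAT6, 17 high, with its apex 2341 bp upstream and the start outside it. KDM5C on the X chromosome had none within 3 kb. KDM5D lies on the Y chromosome, from which the list holds 0 peaks.

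The erasers of H3K9 and H3K36 methylation held more of the peaks at or above a height of 35 than any other group, but also had the most peaks. Of their 11 peaks, 1 each of KDM4B (51), KDM3A (50), KDM4A (47), KDM2A (45) and KDM2B (43) reached that height. Among the other gene-labelled peaks 25.4% did. By share the group did not lead, since both H4K20 writer peaks, at 49 and 53, were above 35. Own-symbol peaks were present for 9 of 12 genes, and the 11 peaks had a median height of 33.0 (16 to 51). KDM4B, which removes H3K9 trimethylation, had a height of 51 over 1137 bp, and its relative KDM4A 47 over 1419 bp. KDM3A, an eraser of mono- and dimethylated H3K9, stood at 50 over 1854 bp. The heights of their close relatives were lower, at 18 for KDM4C, with 366 bp, and 20 for KDM3B, with 1637 bp and an apex 784 bp inside the gene. KDM7A had a height of 16 over 911 bp, and KDM8, whose histone activity is disputed, 33 over 761 bp. KDM4D, KDM4E and KDM4F had no peak within 3 kb. The family's relatives thus did not carry like heights, and pairs from one subfamily lay at both ends of the range.

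KDM2A and KDM2B, which bind unmethylated CpG islands through a CXXC zinc finger, each had a peak at the 5′ end and a higher one deep inside the gene. At KDM2A the 5′ peak was 27 high and 1088 bp wide, and the peak in intron 12, at chr11:67006810-67008902, was 45 high and 2093 bp wide with its apex 140 bp from a start site of a shorter transcript. At KDM2B the 5′ peak was 16 high and 597 bp wide, and the peak in intron 12, at chr12:121904653-121905913, was 43 high and 1261 bp wide, but its apex lay 3088 bp from the nearest start in GENCODE. Both genes are known to make short proteins without the JmjC domain from internal promoters.

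The H3K27 erasers KDM6A (UTX) and KDM6B (JMJD3) oppose Polycomb. KDM6A had a peak 23 high and 560 bp wide, 180 bp upstream of its start. The labelled KDM6B peak, in intron 1, was only 16 high over 1266 bp, but it lay between a pair of unlabelled peaks. The first, at chr17:7737056-7740648, was 25 high and 3593 bp wide. It covered the annotated 5′ end of the gene at 7737535 and had its apex in intron 1. The second was 30 high and 3985 bp wide, with its apex in intron 2, 51 bp from a start site. They were wider than 99.4% and 99.6% of all peaks. By label KDM6B was among the lowest members, while the higher and wider peaks of the gene carried no label.

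Writers as a whole were 25 genes, counting the cofactor ASH2L as well as KMT2E and SETD5 but not PRDM9. They had own-symbol peaks at 14, or 56.0% (37.1 to 73.3%). Their median height was 24 over 15 peaks (16 to 53). Erasers (20 genes) had own-symbol peaks at 13, or 65.0% (43.3 to 81.9%), with a median height of 27 over 15 peaks (16 to 51). Both shares stand beside 29.8% of the other protein-coding genes. The height ranges overlap almost wholly, and no test was made.

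The other SET proteins act largely on non-histone targets. SETD3, the actin histidine methyltransferase, had a height of 40 over 2140 bp, SETD4 36 over 1150 bp and SETD9 23 over 1538 bp, while SETD6 had no peak within 3 kb.

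Of the 15 PRDM genes, zinc finger proteins with a SET-like PR domain that mostly act as transcription factors, 6 had an own-symbol peak. That is 40.0% (19.8 to 64.3%), and the 29.8% of other protein-coding genes lies inside the interval. PRDM10 was the highest at 39 over 1855 bp. PRDM1 (BLIMP-1), a repressor in B cell and macrophage differentiation, had a height of 33 over 1015 bp, and PRDM4 22 over 714 bp. The PRDM2 peak, 28 high and 1601 bp wide, lay inside the gene and not at its 5′ end. Its apex was in exon 6 of the canonical transcript, 31 bp from an internal start. PRDM11 was the lowest at 20 over 668 bp, with its apex 2139 bp upstream of the nearest start. PRDM7 had a height of 35 over 484 bp, but it is a near-identical copy of PRDM9, which had no peak, so reads of one could have been placed at the other. Among the PRDM genes without a peak within 3 kb were PRDM6, PRDM8, PRDM12, PRDM14 and PRDM16. Without the PRDM genes the family's share with an own-symbol peak was 30 of 49, or 61.2%.

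The noncoding labels need their position beside them. KMT2E-AS1 is given with KMT2E above. The KDM4A-AS1 peak, 20 high over 1228 bp, covered the start of KDM4A-AS1 itself, with its apex 20 bp upstream. That apex lay 133 bp upstream of a start of ST3GAL3, a sialyltransferase gene. It lay downstream of the canonical KDM4A transcript and 16801 bp from the nearest start of any KDM4A transcript, so the peak is not a KDM4A promoter peak. The KDM7A-DT peak, 36 high over 1119 bp, lay in intron 1 of KDM7A, 1483 bp downstream of its start, and was higher than the peak labelled KDM7A, at 16.

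Peaks without a label also had their apex inside the genes. At least 1 was found in 18 of the 64 family genes, or 28.1%, beside 13.4% of other protein-coding genes, and there were 32 in all. The family genes are longer, with a median of 66.4 kb beside 27.1 kb. Per 100 kb of gene the family had 0.549 unlabelled peaks beside 0.340, and among genes with a labelled peak 0.624 beside 0.610, so the densities were close in that class. KMT2E held 6, with heights of 16 to 53, all upstream of its canonical transcript and within longer transcripts. KDM2B held 5, with heights of 17 to 31, of which the widest, 2467 bp, lay in intron 6 with its apex 278 bp from a start. DOT1L held 3, with heights of 39 and 33 in intron 1 and 23 in intron 3. KDM4B held 2, with a height of 47 in intron 1, near the 51 of its promoter, and 23 in intron 18.

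**Figure D4:**
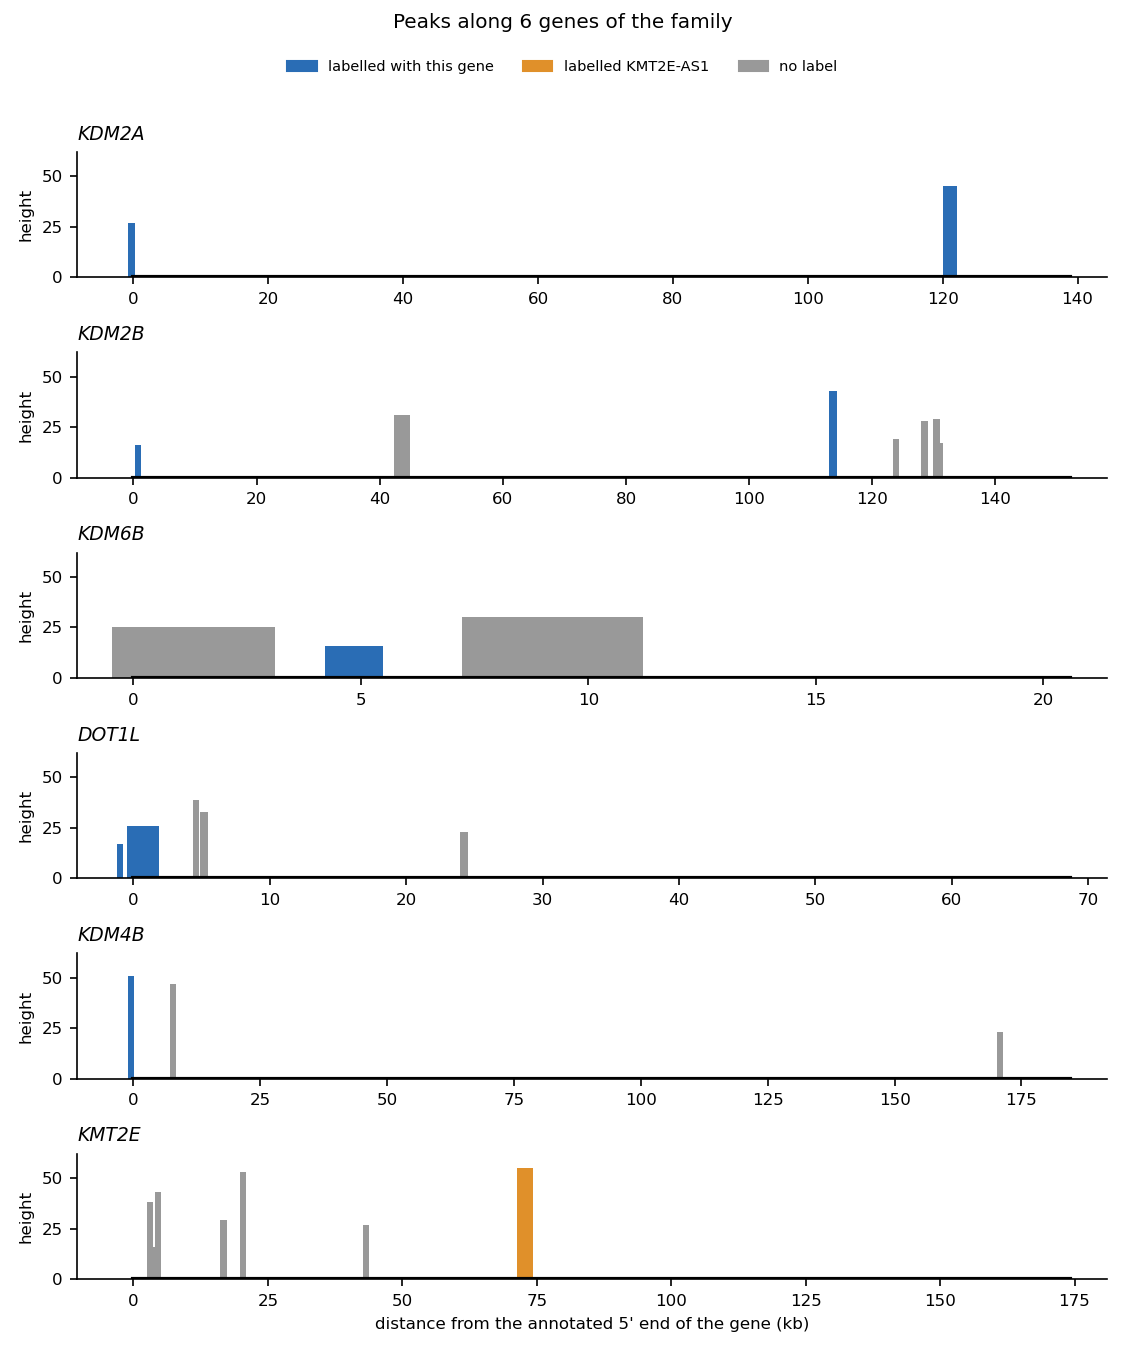
Peaks along 6 family genes, with distance from the annotated 5′ end of the gene (kb) across and peak height up, coloured by label; the black line is the gene, and the narrowest peaks are drawn wider than scale so that they can be seen. The highest labelled KDM2A and KDM2B peaks lie far from the 5′ end, and the labelled KDM6B peak (height 16) lies between wider unlabelled ones (25 and 30).

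Most members sat at a start site. The apex was within 1 kb of a start of the labelled gene in 36 of 42 members, or 85.7%, beside 92.4% of the other gene-labelled peaks, with a median position 89 bp upstream (-89 bp, others -68 bp). A start on the opposite strand, as at divergent promoters, lay within 1 kb of 16 members, or 38.1%, beside 35.7%. Of all 42 windows, 6 had a CpG ratio below 0.6, beside 20.9% of the others, and the median GC content was 66.7% beside 64.7%. For the most part these are promoters of the CpG island kind, and so are the other gene-labelled peaks, with median CpG ratios of 0.872 and 0.812.

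The receptor hexamer was in 26.2% of member windows (15.3 to 41.1%) and 26.5% of the other windows. The 11 members with it had a median height of 23 and the 31 without it 28, with no interval for either. Whether the hexamer goes with height was not tested. The GC box was in 71.4% beside 70.9%, the CCAAT box in 40.5% beside 39.5%, the E-box in 16.7% beside 10.2%, and the core of the cAMP response element (TGACGT) in 11.9% beside 11.1%. The ETS core GGAAGT, the letters that PU.1 and its relatives bind, was in 7 members, or 16.7% (8.32 to 30.6%), beside 31.8% (30.7 to 32.9%). A direct repeat of 2 hexamers with 0 to 5 bases between them was in 0 of 42 member windows, which allows a share of up to 7.14% (3 windows of 42), and in 0.407% of the others. All motifs were searched on both strands. A match is a description of the letters, and a window without one says nothing of the factor.

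**Figure D5:**
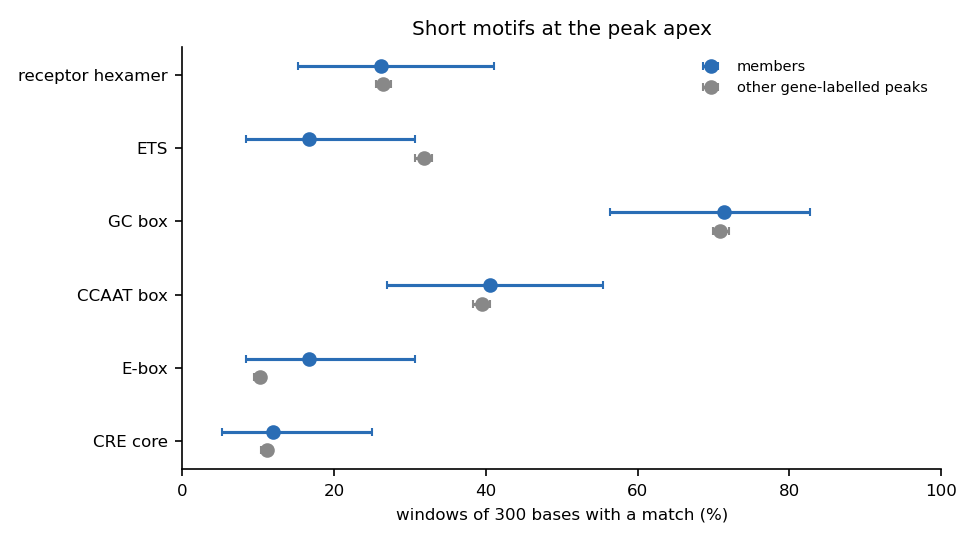
Share of windows of 300 bases at the apex (%) that hold each motif, in members (blue) and other gene-labelled peaks (grey), with 95% Wilson intervals as bars. The receptor hexamer is at 26.2% and 26.5%. The ETS core, at 16.7% in members beside 31.8%, shows the widest gap of the motifs searched, and this gap was not tested.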

How the data were processed

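The peak list covers Cut&Run with the anti-PML-RARA antibody in induced U937-PR9 cells. The submitters' processing notes name Trimmomatic, Bowtie2, SAMtools and SEACR, with hg19 as the build (versions not given in the sources used here). The list holds peaks that recurred in 2 replicates (IDR threshold 0.05). For each peak the deposited values are a total signal and a score, the largest signal within it, and whether these are of 1 replicate or of pooled reads, and how they were scaled, is not given in the sources used here. Gene symbols were given by the authors, from UCSC known genes at the apex.

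Members were selected by symbol. The members and the lists of roles were chosen with earlier results of these data known. Every member is named, and full values go to genes with 2 or more peaks and to the highest, widest and lowest peaks overall and in each group. Distances, introns and exons came from GENCODE release 44 mapped to GRCh37, the same build (15412 of 15412 peaks lie within its chromosomes), in which 6381 symbols were found and 165 were not. The start nearest to the apex among all transcripts was used. Of 1 list no group of samples can be compared, so no test was run. Shares have Wilson 95% intervals, medians order-statistic intervals. Tables were handled in pandas 2.3.3, sequences in pysam 0.24.0, intervals in scipy 1.17.1 and figures in matplotlib 3.10.9, under Python 3.11.15, and the calculations were tested on simulated data. The alternatives were merged peaks, 1 peak a gene, other member lists, higher peaks only, other distances and width classes. The CpG classes and the direct repeats were added after seeing the data.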

Additional observations from a re-analysis of the deposited data

How the results depend on the processing

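Of 46 alternative values, 39 were counted as unchanged. For medians, differences and shares this meant a value within the main value's interval and not of opposite sign. The interval of the difference in median log2 height was wide (-0.31 to 0.34). Differences of 0.00 without the PRDM genes and 0.13 among peaks at or above the median height therefore counted as unchanged. Such a count does not show that direction and size were kept. The difference in median log2 height was 0.03 and turned to -0.03 within 10 classes of width. When peaks lower than the list's median height (25) were dropped, 23 member peaks were left, their median height was 36, and 31.2% of the family's genes had an own-symbol peak beside 17.4% of others. Counting any peak within 3 kb gave 70.3%. The upper decile in place of the upper quartile held 16.7% of members by height (others 10.4%) and 14.3% by width (others 9.98%). The changes in counts and shares follow from the construction of the alternatives, and the cause of the turned sign was not tested. The class by CpG ratio was added after seeing the data. No paired analysis was possible because each peak has 1 value and none for each replicate, and no replicate could be left out for the same reason. Depth is unknown, so the absence of a peak, as at NSD1 or KMT5B, is not evidence of no binding. No list of uninduced cells was used here.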

Other observations

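Of 38 related genes outside the rule, 20 had an own-symbol promoter peak, or 52.6% (37.3 to 67.5%), beside 29.8% of the protein-coding genes outside the family. The median height of the related genes was 31.5 over 22 peaks (16 to 65). JMJD6, a JmjC-domain lysyl hydroxylase, had the highest, at 65 over 2162 bp. Among arginine methyltransferases PRMT1 stood at 48 over 2273 bp and CARM1 at 34, and PRMT5 had 2 peaks at 36 and 24. EZH2, the H3K27 writer of Polycomb, had a height of 25 and JARID2, a cofactor of the same complex, 36. Cofactors of the KMT2 complexes had a peak at 7 of 11 genes, to be read against the same 29.8%, among them PAGR1 at 39, HCFC1 at 34 over 3508 bp, RBBP5 at 32, MEN1 (menin) at 31 and PSIP1 at 18.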
